A study of Mus musculus with 6 samples.

Results

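The RNA of 45 genes of the cell cycle and of DNA replication was compared across 6 mouse libraries. The genes were picked by symbol for their roles, and all 45 were found among the 19330 genes of the deposited table and passed the expression filter that left 16435 genes for testing. The study set induced pluripotent stem cells (iPSC), which are somatic cells returned to a pluripotent state, made with palmitoylcarnitine (PC) beside normal iPSC and embryonic stem cells (ESC). The libraries were control iPSC lines 3 and 7, PC iPSC lines 5 and 13, 1 ESC library titled B6 with the source name B6/blu, and 1 library of mouse embryonic fibroblasts (MEF). The ESC and all iPSC lines grew in 15% serum with 10 ng/ml leukemia inhibitory factor on feeder fibroblasts stopped with mitomycin C, and MEF grew in 10% serum. The sources used here do not give the dose and timing of PC, the reprogramming method, whether a line is 1 clone, the strain beyond that name, the passage of the fibroblasts or the share of cycling cells. No label ties a library to its own culture or animal. The p-values speak only for the spread between lines within the control and PC iPSC groups, since ESC and MEF have 1 library each. That spread may be technical.

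Cells pass from G1 into S phase when D-type cyclins with Cdk4 or Cdk6, and then cyclin E with Cdk2, phosphorylate the retinoblastoma family and release E2F factors, which switch on genes for replication. Before S phase, Cdc6 and Cdt1 load the MCM helicase at origins and geminin blocks a repeat of that loading, while mitosis needs cyclins A and B with Cdk1, the Polo and Aurora kinases and the spindle checkpoint. Mouse pluripotent stem cells are known for a short G1 phase, with little D-type cyclin and steady cyclin E activity, whereas fibroblasts spend longer in G1.

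Assigned reads ran from 26.51 M to 27.99 M per library. Levels are reads per kilobase of the gene length listed with the counts, scaled to library depth (RPKM). That length is not the genomic span printed beside gene names. Differences are log2 values from edgeR's quasi-likelihood test. Their standard error (SE) was computed from the log2 difference and the F statistic of that test. The p-values were adjusted over all 16435 genes by the Benjamini-Hochberg method, with 0.05 as the threshold. All 8 fibroblast markers were higher in MEF than in any iPSC line or ESC. Their summed level was 5641 RPKM in MEF, 288 in ESC, 545 in control iPSC 3 and 1039 to 1252 in the other iPSC lines. Col1a1 was the largest part of the sum in each iPSC line, and the markers differed widely. Mean iPSC levels were 492 RPKM for Col1a1 against 904 in MEF and 89.4 for Thy1 against 188. They were only 5.88 for Dcn against 1005 and 2.07 for Lum against 161. Among the iPSC lines, all 8 were lowest in control iPSC 3. Nanog stood at 316 RPKM in ESC, 388 to 473 in iPSC and 0.0482 in MEF, where Zfp42, Esrrb, Tdgf1 and Dppa5a had no read. The library labelled MEF nevertheless held Pou5f1 at 158 RPKM and Sox2 at 88.2 RPKM, which is not the pattern of plain fibroblasts. It also held the macrophage gene Lyz2 at 463 RPKM and Csf1r at 23.6, against at most 11.5 and 0.41 elsewhere. Ptprc and Adgre1 were likewise highest in MEF, at 3.52 and 17.2 RPKM, but Cd68 was higher in ESC, at 55.2 RPKM, than in MEF, at 37.2 RPKM, and of the endothelial genes Tek stood at 47.7 RPKM in MEF and Pecam1, Cdh5, Kdr and Vwf at 0.327 or less. Whether such cells or factors bear on the MEF values below was not tested. Genes of chromosome 11 stood apart in PC iPSC 5, with a median log2 difference of 0.42 from the other 3 iPSC lines over 1352 genes, and in ESC, with 0.41 from iPSC lines 3, 7 and 13. In bulk RNA, fewer cycling cells and less RNA per cell cannot be told apart.

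The iPSC lines held far more RNA of replication and mitosis genes than MEF, and less of the D cyclins Ccnd1 and Ccnd2. Of the 45 genes, 38 rose and 5 fell in iPSC against MEF, where 36.5% and 31.6% of all genes tested did so, or 68.1% in either direction. At an unadjusted p under 0.05 the count was 43 of the 45, against 71.3% of all genes. The median log2 difference of the 45 was 3.35, against 0.16 over all genes. MEF lay below all 4 iPSC lines for 39 of the 45 genes, against 47.3% of all genes, and above them for 5, against 41.7%. The single MEF library is assumed to vary as the iPSC lines do.

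**Figure D1:**
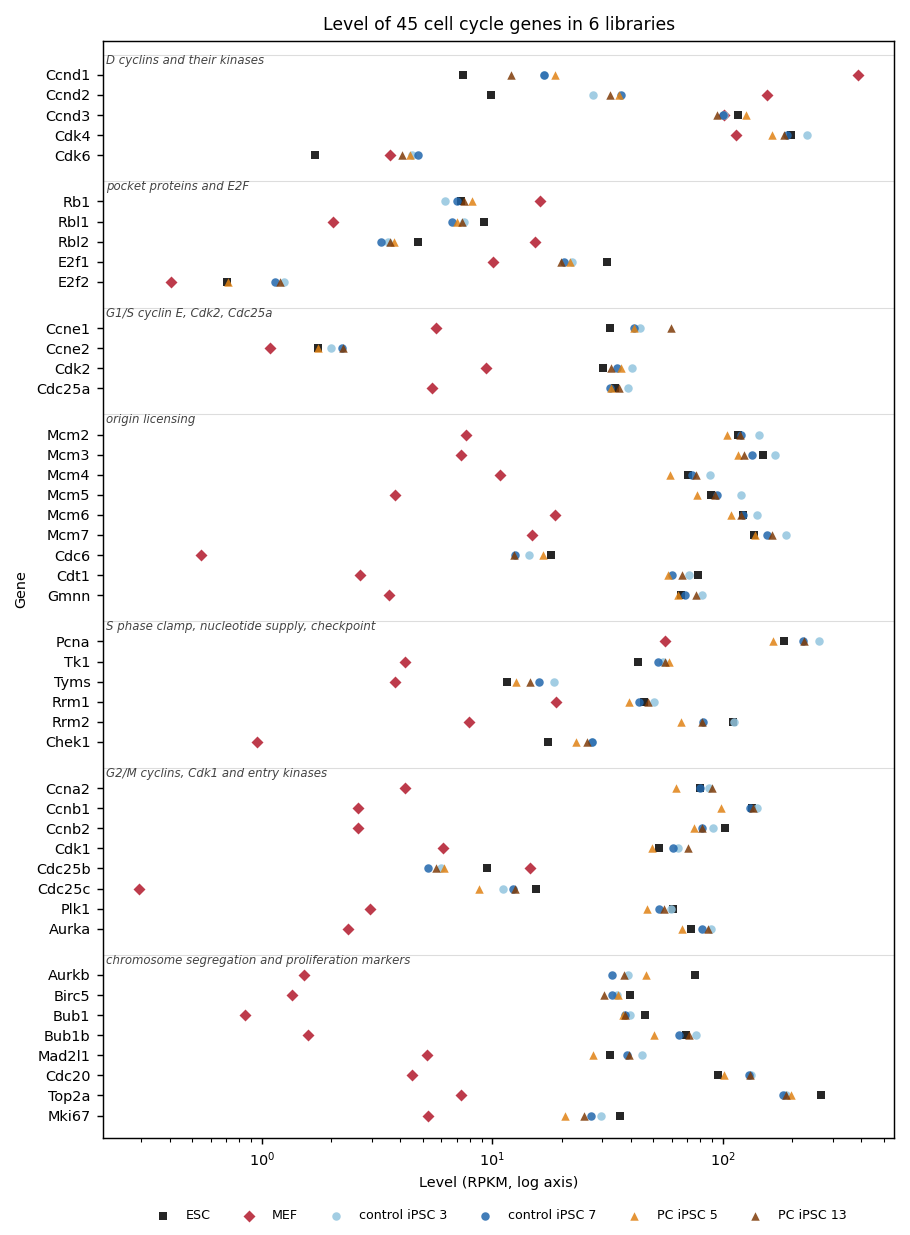
Level of each of the 45 genes in RPKM on a log axis, 1 point per library and no error bars, with the genes grouped by their role. MEF (red diamonds) lies to the left of the other 5 libraries for most genes from Ccne1 down, apart from Cdc25b at 14.6 RPKM, and to the right for Ccnd1 at 388 RPKM and Ccnd2 at 156 RPKM.

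D-type cyclins carry growth signals to the G1 kinases, and the libraries differed in which of them they used. Ccnd1, cyclin D1 (chromosome 7, 144929931 to 144939831 on GRCm38), stood at 388 RPKM in MEF, 16.7 and 16.8 in control iPSC 3 and 7, 18.8 and 12.1 in PC iPSC 5 and 13, and 7.47 in ESC. MEF was far above all other libraries and ESC was the lowest. Ccnd1 fell in iPSC against MEF by a log2 difference of -4.57 (SE 0.19, edgeR adjusted p = 7.6e-06), a 23.8-fold lower level. Against ESC it rose in iPSC by 1.06 (SE 0.25, adjusted p = 0.0423), a call that ended with scaling by library totals (edgeR adjusted p = 0.0511) and with limma (adjusted p = 0.106). Ccnd2, cyclin D2 (chromosome 6, 127125162 to 127152188), stood at 156 RPKM in MEF, 27.4 and 36.3 in control iPSC, 35.5 and 32.5 in PC iPSC and 9.85 in ESC. It had the same order of groups, with log2 differences of -2.23 (SE 0.17, adjusted p = 5.41e-05) against MEF and 1.70 (SE 0.22, adjusted p = 0.0125) against ESC. Ccnd3, cyclin D3 (chromosome 17, 47505051 to 47599689), was similar in level everywhere, at 117 RPKM in ESC, 101 in MEF, 101 and 100.3 in control iPSC and 126 and 94.8 in PC iPSC. The MEF and ESC values both lay within the range of the iPSC lines, and neither difference passed the test (0.08, SE 0.18, adjusted p = 0.693 against MEF and -0.20, SE 0.17, adjusted p = 0.485 against ESC).

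In summed RPKM of the 3 D cyclins, Ccnd3 made up 87.2% in ESC, 65.4% to 70.0% in the iPSC lines and 15.7% in MEF. Ccnd1 made up 5.54%, 8.67% to 11.5% and 60.1% in the same order. Ccnd3 was thus the leading D cyclin in every pluripotent library, and Ccnd1 in MEF. Fibroblast markers were also higher in iPSC than in ESC, and MEF is rich in Ccnd1 and Ccnd2. Control iPSC 3, with the lowest fibroblast marker sum of the iPSC lines, had a Ccnd1 level of 16.7 RPKM and the lowest Ccnd2 level of these lines, at 27.4 RPKM. The part of feeder RNA in these differences was not tested.

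Of the kinases that pair with D cyclins, Cdk4 (chromosome 10, 127063535 to 127067288) was at 192 ± 29 RPKM in iPSC (SD, n = 4), 198 in ESC and 114 in MEF, and it rose against MEF by 0.77 (SE 0.19, adjusted p = 0.00907). Cdk6 (chromosome 5, 3341004 to 3531008) was at 4.47 and 4.77 RPKM in control iPSC, 4.38 and 4.05 in PC iPSC, 3.59 in MEF and 1.71 in ESC. ESC was below all iPSC lines, and Cdk6 rose in iPSC against ESC by 1.33 (SE 0.26, adjusted p = 0.0289). Against MEF its difference was 0.32 (SE 0.24, adjusted p = 0.258). Cdk4 made up 97.0% to 99.1% of the RPKM of the pair in all 6 libraries, the highest share being in ESC.

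The pocket proteins, which hold E2F factors in check, did not move together. Rb1, the retinoblastoma protein (chromosome 14, 73192858 to 73325951), stood at 16.1 RPKM in MEF and 7.24 ± 0.804 in iPSC (SD, n = 4), and fell against MEF by 1.13 on the log2 scale (SE 0.14, adjusted p = 0.000487). Rbl2, the p130 protein that marks resting cells (chromosome 8, 91070057 to 91123844), stood at 15.4 RPKM in MEF and 3.54 ± 0.185 in iPSC, and fell by 2.10 (SE 0.14, adjusted p = 3.17e-05). Rbl1, the p107 protein of cycling cells (chromosome 2, 157145893 to 157204534), went the other way, with 2.03 RPKM in MEF and 7.16 ± 0.375 in iPSC, and rose by 1.84 (SE 0.19, adjusted p = 0.00018). The ratio of Rbl1 to Rbl2 in RPKM was 0.132 in MEF, 1.88 to 2.12 in the iPSC lines and 1.93 in ESC. Among the E2F factors that activate S phase genes, E2f1 stood at 10.1 RPKM in MEF, 21.1 ± 1.06 in iPSC and 31.4 in ESC, and rose against MEF by 1.08 (SE 0.15, adjusted p = 0.000824). E2f2 stood at 0.404 to 1.25 RPKM across the libraries, and rose against MEF by 1.43 (SE 0.44, adjusted p = 0.024).

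**Figure D2:**
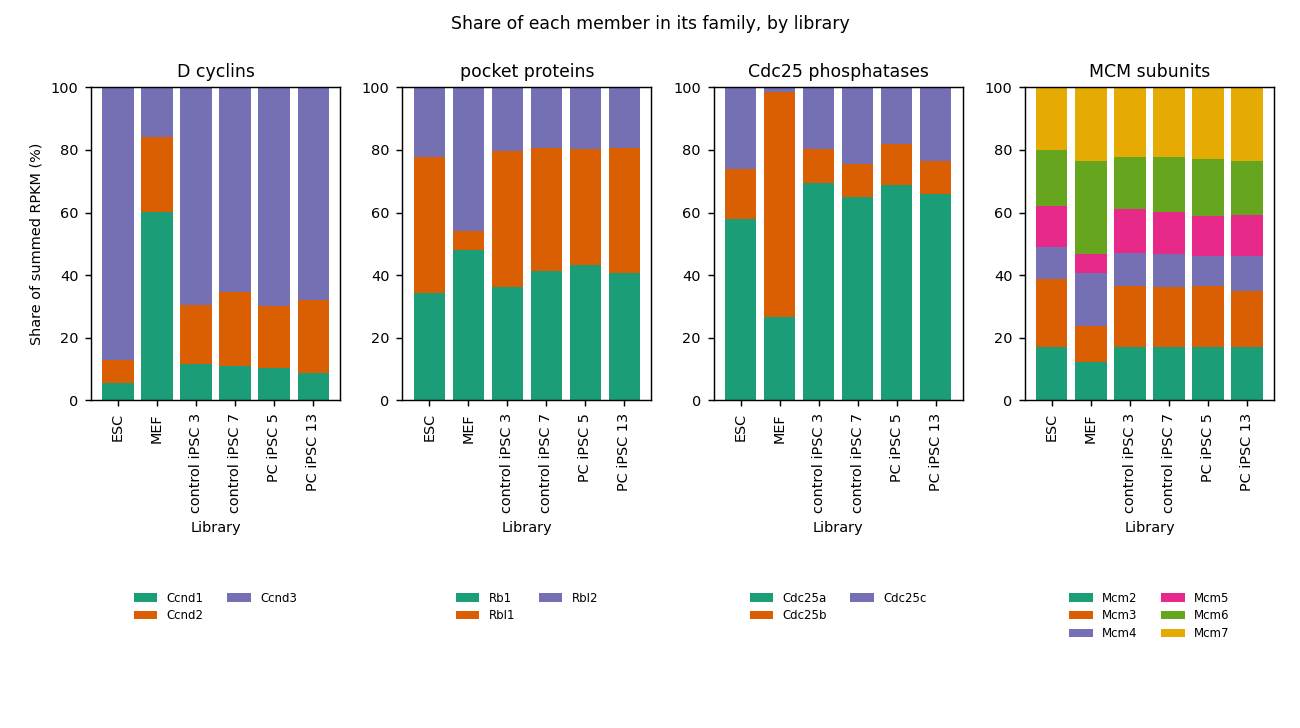
Share of each member in the summed RPKM of its family, in percent, by library, with no replicates for ESC and MEF. Ccnd1, Rbl2 and Cdc25b take 60.1%, 46% and 71.7% of their families in MEF, and 5.54%, 22.4% and 16.0% in ESC, while the shares of the 6 MCM subunits differ little among the 5 pluripotent libraries.

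The promoters of these genes carry known sites of cell cycle control, shown here because replication genes and mitotic genes both stood higher in pluripotent cells. RefSeq promoter windows of GRCm38.p6, from 250 bases before to 50 after each start, were found for 36 of the 45 genes. They were searched on both strands for the E2F site letters TTTCCCGC and TTTGGCGC, the CCAAT box letters CCAAT and the letters TTTGAA of the CHR element, which is bound by the MuvB complexes that time mitotic genes. Matches of different motifs can share letters at their ends, as CCAAT and TTTGAA share a T. E2F letters were in 6 of 7 origin licensing genes with a window, against 1.8% of all 27025 RefSeq genes with a window. None of the 6 S phase genes (Pcna, Tk1, Tyms, Rrm1, Rrm2 and Chek1) held them. They were in none of the 13 genes of the G2/M and chromosome segregation groups, near the share of all genes, and in 9 of the other 23. CHR letters were in 8 of those 13 genes and in 3 of the other 23, against 20.2% of all genes, and CCAAT was in 11 of the 13 and 12 of the 23, against 41.1%. The 250 bases before the start are printed for a pair of licensing genes (Mcm6, Mcm5), a pair of mitotic genes (Cdk1, Ccnb2) and for Cdc25b, the mitotic gene that fell in iPSC against MEF. Capitals mark the letters of any of the motifs on either strand, so that some appear as the reverse complement.
Mcm6 (chr1:128359706-128359955, minus strand): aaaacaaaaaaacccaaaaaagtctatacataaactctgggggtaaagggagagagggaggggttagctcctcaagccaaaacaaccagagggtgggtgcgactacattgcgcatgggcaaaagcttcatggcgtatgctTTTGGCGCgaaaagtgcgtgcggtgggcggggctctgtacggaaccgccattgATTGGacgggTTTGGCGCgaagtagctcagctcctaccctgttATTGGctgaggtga
Mcm5 (chr8:75109259-75109508, plus strand): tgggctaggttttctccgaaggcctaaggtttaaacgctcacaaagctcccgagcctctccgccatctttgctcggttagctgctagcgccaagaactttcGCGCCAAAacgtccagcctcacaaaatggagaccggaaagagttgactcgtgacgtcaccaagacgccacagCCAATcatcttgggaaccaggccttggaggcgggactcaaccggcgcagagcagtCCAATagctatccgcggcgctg
Cdk1 (chr10:69352913-69353162, minus strand): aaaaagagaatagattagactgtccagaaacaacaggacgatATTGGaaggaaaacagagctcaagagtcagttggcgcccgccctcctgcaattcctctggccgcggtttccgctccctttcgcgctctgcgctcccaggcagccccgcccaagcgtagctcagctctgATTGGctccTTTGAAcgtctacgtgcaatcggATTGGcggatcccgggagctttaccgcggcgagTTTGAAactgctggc
Ccnb2 (chr9:70421555-70421804, minus strand): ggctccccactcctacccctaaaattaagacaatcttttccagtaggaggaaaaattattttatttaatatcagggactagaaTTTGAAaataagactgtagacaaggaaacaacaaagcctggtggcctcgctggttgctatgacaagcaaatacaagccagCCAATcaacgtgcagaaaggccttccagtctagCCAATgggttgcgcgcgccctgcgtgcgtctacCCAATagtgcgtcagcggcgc
Cdc25b (chr2:131186698-131186947, plus strand): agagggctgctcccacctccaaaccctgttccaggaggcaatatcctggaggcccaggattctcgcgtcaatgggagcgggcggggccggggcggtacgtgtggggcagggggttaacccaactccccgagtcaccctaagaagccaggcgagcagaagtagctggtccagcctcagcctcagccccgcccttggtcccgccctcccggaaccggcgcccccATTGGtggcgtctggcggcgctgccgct
Mcm6 shows 2 E2F and 2 CCAAT motifs, Mcm5 shows 1 and 2, and neither shows CHR letters. Cdk1 shows 2 CHR and 3 CCAAT motifs and Ccnb2 shows 1 and 3, with no E2F letters in either. Cdc25b shows only 1 CCAAT motif. The windows of Mcm5 and Cdc25b belong to a transcript that starts inside the outer bounds of the gene. A match of letters is not a measured site, and a window without them says nothing of the factor.

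The G1/S group rose in iPSC against MEF, all 4 members passing the test, where 36.5% of all genes rose. Ccne1, cyclin E1, the partner of Cdk2 (chromosome 7, 38097984 to 38107490), stood at 43.9 and 41.3 RPKM in control iPSC, 41.4 and 59.6 in PC iPSC, 32.4 in ESC and 5.69 in MEF. MEF was the lowest and PC iPSC 13 the highest, and the log2 difference from MEF was 3.05 (SE 0.28, adjusted p = 0.000123), an 8.29-fold rise. Ccne2, cyclin E2, was low everywhere at 1.09 to 2.25 RPKM, and its rise of 0.94 (SE 0.33, adjusted p = 0.0395) ended under 6 of 14 alternatives, among them leaving out control iPSC 3, control iPSC 7 or PC iPSC 13. Cdk2 rose by 1.96 (SE 0.18) and Cdc25a, the phosphatase that activates Cdk2, by 2.70 (SE 0.20).

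All 9 origin licensing genes rose in iPSC against MEF, where 36.5% of all genes did so, with a median log2 difference of 4.23. Mcm5, a subunit of the replicative helicase (chromosome 8, 75109468 to 75128439), stood at 120.4 and 94.4 RPKM in control iPSC, 77.4 and 92.5 in PC iPSC, 88.8 in ESC and 3.77 in MEF. The MEF value lay far below all others, and the log2 difference was 4.69 (SE 0.28, adjusted p = 2.18e-05), a 25.7-fold rise. Mcm2, Mcm3 and Mcm7 rose by 4.0, 4.23 and 3.46, and Mcm4 and Mcm6 by 2.80 and 2.74. The subunits form a ring of 1 copy each, and per length their RNA was more even in pluripotent cells than in MEF. Mcm4, the lowest in each iPSC line, made up 9.75% to 11% of their summed RPKM there and Mcm7, the highest, 22.2% to 23.5%, while in MEF Mcm5 made up 5.96% and Mcm6 29.7%. Cdc6, which brings the helicase to origins (chromosome 11, 98907709 to 98923942), stood at 0.543 RPKM in MEF, from 70 reads, and at 14 ± 1.99 in iPSC (SD, n = 4), a difference of 4.71 (SE 0.27, adjusted p = 2.01e-05). Its partner Cdt1 rose by 4.61 (SE 0.24) and Gmnn, geminin, the inhibitor of Cdt1, by 4.37 (SE 0.25). The ratio of Cdt1 to Gmnn in RPKM was 0.877 to 0.905 in the 4 iPSC lines, 1.19 in ESC and 0.748 in MEF.

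In the S phase group all 6 genes rose against MEF, where 36.5% of all genes did so. Chek1, the checkpoint kinase that guards replication forks (chromosome 9, 36708482 to 36726658), rose most, by 4.77 (SE 0.22, adjusted p = 9.37e-06), from 0.957 RPKM in MEF to 25.7 ± 1.77 in iPSC. Tk1, thymidine kinase, rose by 3.75 (SE 0.18) and Rrm2, the S phase subunit of ribonucleotide reductase, by 3.44 (SE 0.29). Rrm1, the large subunit of the same enzyme, rose by 1.28 (SE 0.20), so that Rrm2 took 29.5% of the summed RPKM of the pair in MEF and 62.7% to 69.0% in iPSC. Pcna, the sliding clamp of the polymerases, had 56.2 RPKM in MEF and 219 ± 39.8 in iPSC, a rise of 1.98 (SE 0.25), and Tyms, thymidylate synthase, rose by 2.04 (SE 0.20).

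Of the 8 genes for entry into mitosis, 7 rose against MEF and Cdc25b fell, with a median log2 difference of 4.64. Of all genes 36.5% rose and 31.6% fell. Ccnb1, cyclin B1, the partner of Cdk1 (chromosome 13, 100778739 to 100786486), stood at 141 and 131 RPKM in control iPSC, 98.5 and 135 in PC iPSC, 134 in ESC and 2.61 in MEF. The pluripotent libraries were alike but for a lower value in PC iPSC 5, and the log2 difference of 5.62 from MEF (SE 0.32, adjusted p = 1.84e-05), or 49.2-fold, was the largest of the 45. Ccnb2, cyclin B2, rose by 4.99 (SE 0.22), Ccna2, cyclin A2, by 4.28 (SE 0.31) and Cdk1 itself by 3.35 (SE 0.29). The mitotic kinases Aurka and Plk1 rose by 5.11 (SE 0.28) and 4.21 (SE 0.23). The Cdc25 phosphatases that activate Cdk1 split. Cdc25c stood at 0.294 RPKM in MEF, from 16 reads, and at 11.2 ± 1.76 in iPSC, a rise of 5.26 (SE 0.41, adjusted p = 5.92e-05). Cdc25b (chromosome 2, 131186436 to 131198511) stood at 14.6 RPKM in MEF, 9.46 in ESC, 6.02 and 5.26 in control iPSC and 6.20 and 5.73 in PC iPSC. It fell against MEF by 1.31 on the log2 scale (SE 0.16, adjusted p = 0.000377), the reverse of the rest of its group.

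All 8 genes of chromosome segregation and proliferation rose against MEF, where 36.5% of all genes did so, with a median log2 difference of 4.70. Bub1, a kinase of the spindle checkpoint (chromosome 2, 127800197 to 127831859), stood at 39.5 and 37.6 RPKM in control iPSC, 37.1 and 37.7 in PC iPSC, 45.9 in ESC and 0.848 in MEF. The iPSC lines were nearly equal, and the log2 difference was 5.51 (SE 0.21, adjusted p = 5.95e-06). The checkpoint proteins Bub1b and Mad2l1 rose by 5.40 (SE 0.34) and 2.86 (SE 0.29), and Cdc20, the activator of the anaphase-promoting complex that this checkpoint holds back, by 4.80 (SE 0.27). Aurkb and Birc5 (survivin), which sit together in the chromosomal passenger complex, rose by 4.68 (SE 0.24) and 4.65 (SE 0.20). Top2a, which untangles DNA before segregation, rose by 4.71 (SE 0.21). Mki67, the proliferation marker Ki-67 (chromosome 7, 135689784 to 135716450), stood at 5.27 RPKM in MEF and 25.5 ± 3.74 in iPSC, a rise of 2.29 (SE 0.21, adjusted p = 0.00011) that was smaller than that of the other 7 genes.

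**Figure D3:**
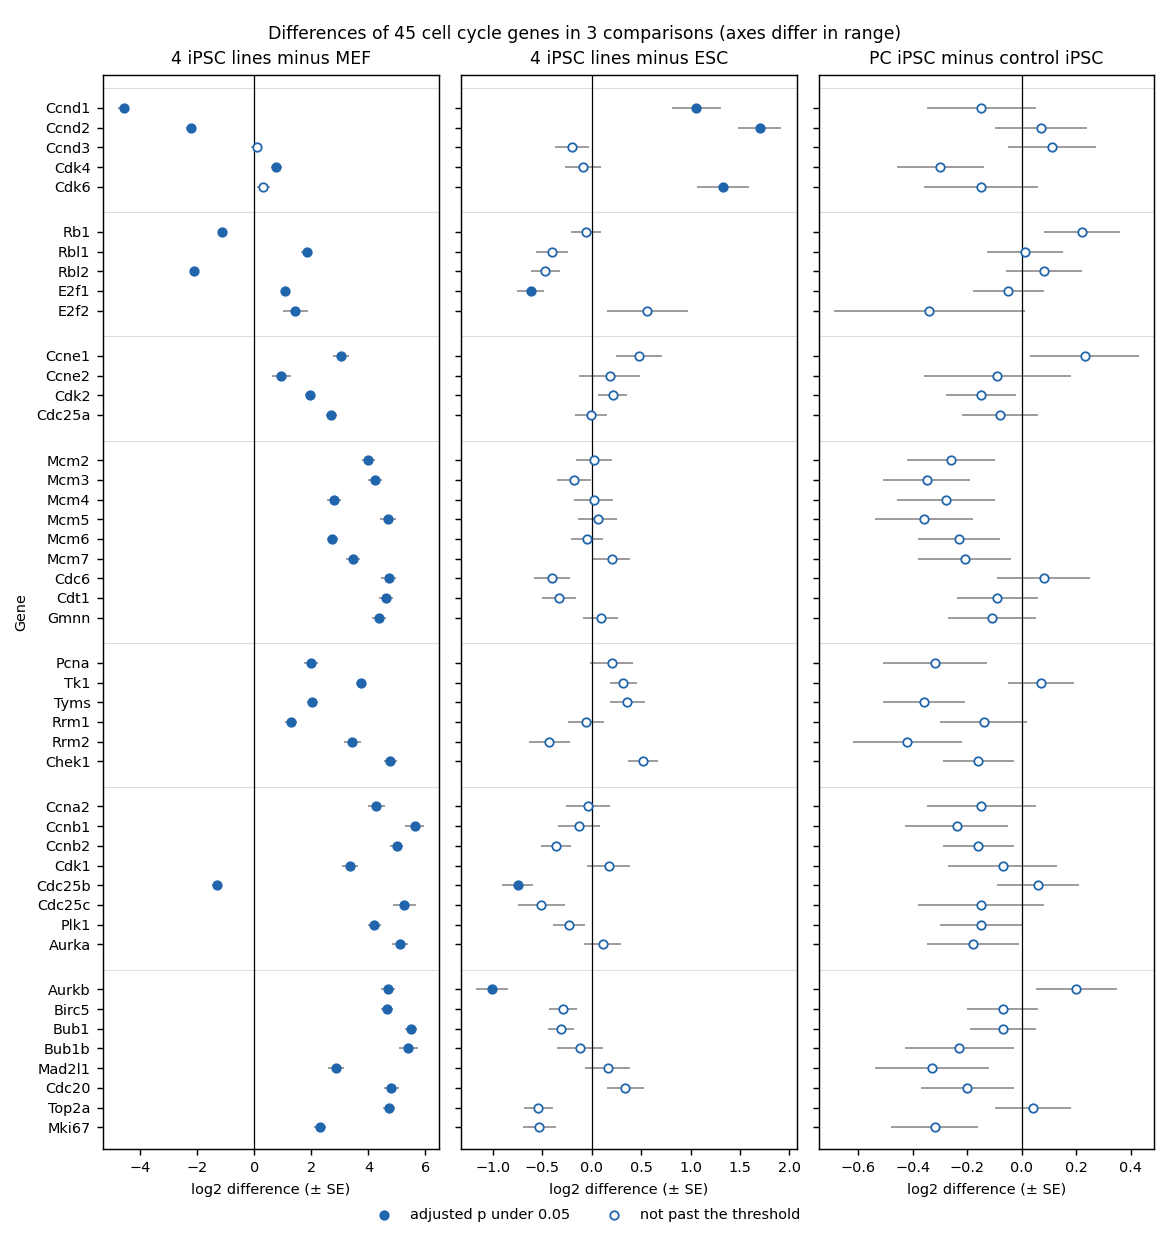
Log2 difference of each gene with its SE for iPSC against MEF, iPSC against ESC and PC against control iPSC, the horizontal axes differing in range. Filled points are past an adjusted p of 0.05: 43 genes against MEF, 6 against ESC and 0 between PC and control iPSC.

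Most of the same genes set ESC apart from MEF, in 1 library each, with no test and counted by a 2-fold limit in place of an adjusted p. ESC was at least 2-fold above MEF for 35 of the 45 genes and at least 2-fold below for 5, against 33.3% and 27.2% of all genes. The 5 were Ccnd1, Ccnd2, Cdk6, Rb1 and Rbl2, with log2 differences of -5.63, -3.92, -1.0, -1.08 and -1.63. Of these, Cdk6 had not passed the test in iPSC against MEF (0.32), while Cdc25b, which fell there by 1.31, was at -0.56 in ESC. This comparison shares its MEF library with the one above.

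Lists of other pathway genes, chosen by role, differed in how they stood in iPSC against MEF, and their counts are to be read against the 36.5% of all genes that rose and the 31.6% that fell. In the list of origin recognition, helicase activation and polymerase genes 33 of 34 rose and none fell, led by the replication initiators Mcm10 (6.69, SE 0.41) and Orc1 (6.42, SE 0.37), with the helicase activators Gins1 (4.78) and Cdc45 (4.64). In the kinetochore and spindle list all 19 rose, led by the securin gene Pttg1 (6.31, SE 0.23), the separase gene Espl1 (5.49), the checkpoint kinase Ttk (5.24) and the mitotic kinesin Kif20a (4.93). Of 14 further E2F, MuvB and FOXM1 genes 8 rose and none fell, so that 57.1% were called, below the 68.1% of all genes called in either direction. Mybl2, which joins MuvB to switch on mitotic genes, stood at 0.82 RPKM in MEF, 195 ± 16.8 in iPSC and 324 in ESC, a rise of 7.91 (SE 0.29, adjusted p = 5.57e-06). Foxm1, E2f8 and E2f5 rose by 2.26, 2.03 and 1.79. Of 16 genes of the anaphase-promoting complex and its regulators 9 rose and 1 fell, and the 62.5% called was also below that share. The ubiquitin-conjugating enzymes Ube2c and Ube2s rose by 4.93 and 3.07, the inhibitor Fbxo5 by 4.55 and the core subunit Cdc23 by 1.34, and the core subunit Anapc2 fell by 0.99. Of 7 genes of the G2 checkpoint and phosphatase control 5 rose, among them the Cdk1-inhibiting kinases Pkmyt1 (4.13) and Wee1 (1.84), the kinase Mastl (3.26) and the checkpoint kinase Chek2 (3.19), and Ensa fell by 0.41. Of 7 inhibitors of cyclin-dependent kinases 4 fell, Cdkn1c by 2.76, Cdkn2c by 2.16, Cdkn2a by 1.26 and Cdkn1b by 0.97, and Cdkn2d rose by 0.65, which makes 71.4% called, near the share of all genes.

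Between iPSC and ESC, 39 of the 45 genes did not pass the test, and the 6 that did made up 13.3%, near the share of all genes. Against ESC, 3 of the 45 rose in iPSC (Ccnd1, Ccnd2 and Cdk6) and 3 fell (E2f1, Cdc25b and Aurkb), where 4.71% and 5.71% of all genes did so, or 10.4% in either direction. At an unadjusted p under 0.05 there were 12 of the 45, against 29.8% of all genes. The median log2 difference of the 45 was -0.05, against 0.03 over all genes. All 3 that rose belong to the group of D cyclins and their kinases. E2f1 stood at 22.1 and 20.4 RPKM in control iPSC, 21.8 and 19.9 in PC iPSC and 31.4 in ESC, above all iPSC lines, a log2 difference of -0.62 (SE 0.14, adjusted p = 0.0371), whose call ended with library totals (edgeR adjusted p = 0.0507) and with limma (adjusted p = 0.0831). Cdc25b differed by -0.75 (SE 0.16, adjusted p = 0.0364). Aurkb, the Aurora kinase of the passenger complex (chromosome 11, 69045624 to 69051664), stood at 75.8 RPKM in ESC, 38.7 and 33.2 in control iPSC and 46.5 and 37.4 in PC iPSC. ESC exceeded every iPSC line, and Aurkb fell in iPSC by 1.01 on the log2 scale (SE 0.16, adjusted p = 0.0186). With limma on log2(RPKM + 1) none of the 45 was called (12 at an unadjusted p under 0.05, and 11 of all genes called), without PC iPSC 5 the genes that rose numbered 5, adding Ccne1 and Chek1, and those that fell 4, adding Top2a, and without PC iPSC 13 the genes that fell numbered 5, adding Top2a and Mki67.

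The place of ESC relative to the range of the iPSC lines is given here as a description, with no test. ESC lay above all 4 iPSC lines for 14 of the 45 genes and below them for 12, against 29.3% and 37.3% of all genes. It lay above them for 5 of the 8 chromosome segregation and proliferation genes, Aurkb among them, for 4 of the 8 mitosis entry genes, 3 of the 5 pocket protein and E2F genes and 2 of the 9 licensing genes. Among those that did not pass the test were Top2a at 267 RPKM in ESC against 182 to 198 in iPSC (-0.54, SE 0.15, adjusted p = 0.0644) and Mki67 at 35.7 against 20.7 to 29.7 (-0.53, SE 0.17, adjusted p = 0.0904). Top2a was called lower in iPSC with DESeq2 (-0.53) and with the iPSC lines as 1 group of 4 (-0.54), and Mki67 with neither. ESC lay below all iPSC lines for 3 of the 5 D cyclin and kinase genes, 3 of the 4 G1/S genes, 3 of the 6 S phase genes and 1 gene each of the pocket protein, licensing and segregation groups, with Chek1 at 17.4 RPKM against 23.2 to 27.0 (0.52, SE 0.15, adjusted p = 0.0761). Aurkb, Top2a, Birc5, Cdc6 and Tk1 lie on chromosome 11, where genes as a whole stood higher in ESC. Compared with iPSC lines 3, 7 and 13, their log2 differences in ESC were 1.09 for Aurkb, 0.54 for Top2a, 0.48 for Cdc6, 0.30 for Birc5 and -0.31 for Tk1, beside a median of 0.41 for the chromosome. ESC lay above all 4 iPSC lines for 4 of the 5, against 40.8% of chromosome 11 genes. It lay above lines 3, 7 and 13 for the same 4, against 65.0%. Aurkb was well above that median, Top2a and Cdc6 near it and Tk1 below 0. In the fit without chromosome 11 genes, the 40 other members held the same 3 higher calls and 2 lower calls. Among the other pathway genes, Pttg1 and Mad1l1, a checkpoint protein, rose against ESC by 0.84 (SE 0.15) and 1.06 (SE 0.21). Mybl2, E2f8, a repressor among the E2F factors, and the MuvB subunit Lin52 fell by 0.78, 1.12 and 1.0, the replication kinase Cdc7 and the polymerase subunit Pold1 by 0.62 each, and Cdkn1c by 1.32. Those 8 calls came from 97 genes of these lists, or 8.25%, below the 10.4% of all genes.

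PC and control iPSC did not differ in any of the 45 genes past the threshold. edgeR called 0, DESeq2 called 0, and each had 0 of the 45 at an unadjusted p under 0.05, while edgeR also called 0% of all genes and had 2.34% of them at that unadjusted p. The differences ran from -0.42 to 0.23 on the log2 scale, with a median SE of 0.16, and 34 of the 45 were below 0. Their median was -0.15, against 0.00 over all genes. Both PC lines lay below both control lines for 11 genes, or Cdk4, Cdk6, Mcm2, Mcm3, Mcm5, Mcm6, Tyms, Rrm2, Chek1, Ccnb2 and Mki67, and above them for 4, or Rb1, Rbl2, Tk1 and Top2a, where 15.2% and 16.2% of all genes did so. Rrm2 had the largest difference, with 112 and 81.9 RPKM in control iPSC and 65.9 and 81.4 in PC iPSC (-0.42, SE 0.20, adjusted p = 0.963). For Rrm2 the lines of each group were further apart than the near pair of control iPSC 7 and PC iPSC 13. Mcm5 differed by -0.36 (SE 0.18) and Ccnb1 by -0.24 (SE 0.19). Without PC iPSC 5 the median over the 45 genes was 0.00 with 24 below 0, and without control iPSC 3 it was -0.08, while without PC iPSC 13 it was -0.30, with 0 of the 45 called in each case. Without PC iPSC 13 the count at an unadjusted p under 0.05 went from 0 to 15 of the 45, and over all genes from 385 of 16435 to 1914 of 16383. The median over the 45 genes was -0.20, with 36 below 0, when control iPSC 7 was left out. Without control iPSC 7 the fit called 309 of all genes and none of the 45.

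The lean below 0 went with PC iPSC 5 and control iPSC 3. PC iPSC 5 was the lowest of the 4 lines for 28 of the 45 genes, against only 28.2% of all genes. Control iPSC 3 was the highest for 28 of the 45, against only 27.5% of all genes. The median log2 difference of each line from the mean over its 3 fellow lines was -0.28 in PC iPSC 5, 0.21 in control iPSC 3, 0.01 in control iPSC 7 and 0.05 in PC iPSC 13. Mitosis entry genes were lowest in PC iPSC 5, with a median of -0.44, and 7 of the 8 had their lowest value there, with Ccna2 at 62.4 RPKM against 79.6 to 89.9 in the other lines. Licensing genes were highest in control iPSC 3, with a median of 0.32, and 8 of the 9 peaked there, with Mcm3 at 169 RPKM against 116 to 134. The 7 pluripotency markers had medians of -0.30 in PC iPSC 5 and 0.21 in control iPSC 3, with 4 lowest in the first and 6 highest in the second. Nanog went the other way, at 0.21 and -0.11, and Esrrb was at -0.02 in PC iPSC 5. The fibroblast markers had medians of 0.41 in PC iPSC 5 and -0.88 in control iPSC 3. Control iPSC 7 and PC iPSC 13, with member medians of 0.01 and 0.05, had fibroblast marker medians of 0.29 and 0.16. The part of these markers in the result was not tested.

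The 5 genes on chromosome 11 did not share the low values of PC iPSC 5. Cdc6, Tk1, Aurkb, Birc5 and Top2a each had their highest iPSC value in that line, as did 80.5% of all chromosome 11 genes, while the 40 other members had their lowest value there in 28 cases, against 30.4% of genes of other chromosomes. Aurkb stood at 46.5 RPKM in PC iPSC 5 against 33.2 to 38.7 in the other iPSC lines, and Cdc6 at 16.6 against 12.4 to 14.5. Tk1, Birc5 and Top2a were only slightly higher there, at 58.2, 35.2 and 198 RPKM against 52.5 to 56.3, 30.5 to 34.8 and 182 to 189. The median log2 difference of PC iPSC 5 from the other lines was 0.05 for the 5 genes and -0.32 for the 40, beside 0.42 for all genes of chromosome 11 and -0.02 for those of the other autosomes. Both medians of the members lay below those of all genes from the same chromosomes.

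**Figure D4:**
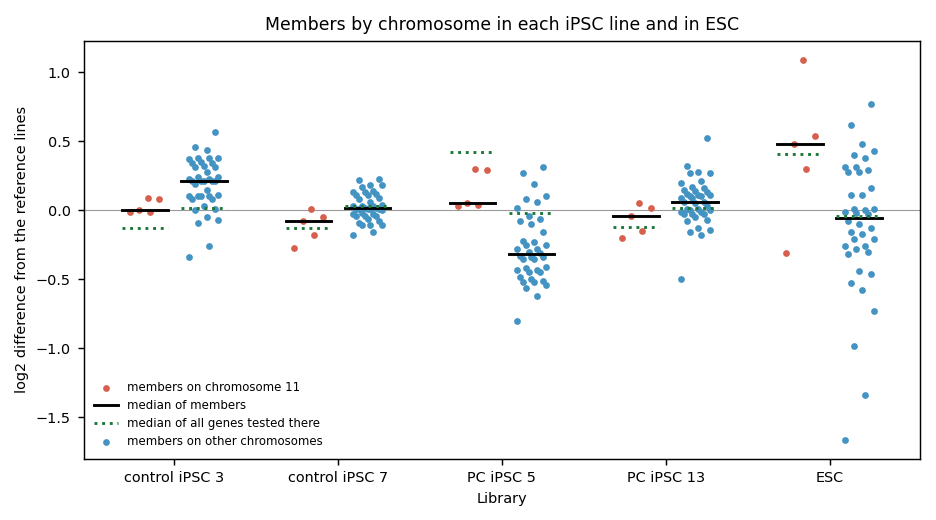
Log2 difference of each member from the mean over the 3 other lines of iPSC, or for ESC from iPSC lines 3, 7 and 13, 1 point per gene, with the 5 members on chromosome 11 in red and the 40 others in blue. Solid bars are medians of the members and dotted bars medians of all tested genes of chromosome 11 or the other autosomes; in PC iPSC 5 the solid bars stand at 0.05 and -0.32 and the dotted bars at 0.42 and -0.02.

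Among the 4 iPSC lines the genes varied unequally. Bub1 had a coefficient of variation in RPKM of 2.79%, Top2a 3.36% and Tk1 4.23%, and E2f2 23.0% and Rrm2 22.8%. E2f2 was low, at 0.712 to 1.25 RPKM, so counting error weighs more on it, but Rrm2 ran from 65.9 to 112 RPKM. Bub1 and Bub1b, partners in the same checkpoint and both on chromosome 2, differed in this, Bub1b running from 50.3 to 76.2 RPKM with 17.2%.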

How the data were processed

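RNA of 6 libraries was sequenced from total RNA with an mRNA kit, per the labels' protocols. Per the file headers, the deposited table holds read counts uniquely assigned to 19330 genes. The counts sum to the total in the header in all 6 libraries. The authors also deposited RPKM, which count, length and total gave again for the 45 genes within a relative difference of 4.4e-15. The submitters' processing notes name CASAVA 1.8.2 and mm10. No aligner, counter or strand setting is given in the sources used here, so overlapping antisense reads cannot be told apart. The 6 columns of read coverage and the per-library copies were not used.

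The test was edgeR 4.0.16 under R 4.3.3, on these counts (TMM scaling, default filter, 16435 genes, 4 group means over 6 libraries, 2 residual degrees of freedom), with DESeq2 1.42.0 and limma 3.58.1 as alternatives. On simulated data, changes of 2-fold were recovered for 51.5% of changed genes between PC and control iPSC, 28% against ESC and 36% against MEF. Changes of 8-fold were recovered for 100% in each. The simulation changed only 200 genes and gave every gene the same spread, so its rates need not hold for the tests here. Gene positions are RefSeq on GRCm38. The members, lists and alternatives were chosen with earlier results of these data known. Named genes are all 45 members, markers, and in each other list up to 4 called genes of largest change per direction.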

Additional observations from a re-analysis of the deposited data

Results flagged for a closer look

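Among the 4 iPSC lines, 1 line stood far from the other 3 for 2 of the 45 genes, with a gap, as a ratio of the whole range, past Dixon's 95% critical value. Ccne1 was at 59.6 RPKM in PC iPSC 13 against 41.3 to 43.9 in the other lines, a ratio of 0.857. Cdc20 was at 101 RPKM in PC iPSC 5 against 130.3 to 133 in the other lines, a ratio of 0.922. Chance gives such a ratio in about 1 in 20 groups, and 2 of the 45 genes is near that rate. The share of all genes past this limit was not computed.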

How the results depend on the processing

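No paired analysis was possible because the iPSC groups share no line numbers and ESC and MEF have 1 library each, whose number 1 is only a name. The 38 higher and 5 lower genes against MEF numbered 33 to 38 and 5 under every alternative run (33 of the 40 tested without chromosome 11), and the median of 3.35 was 3.11 with limma, 2.85 without genes of chromosome 11 and 3.19 to 3.45 with 1 iPSC line left out. Against ESC, limma called 11 genes in place of 1713, with 0 members higher and 0 lower. With 1 line left out the total ran from 1781 to 2873 (2873 without control iPSC 3, 2734 without control iPSC 7 and 2566 without PC iPSC 5), the members higher from 3 to 5 and those lower from 3 to 5. Scaling by library totals ended the calls of Ccnd1 and E2f1 against ESC. DESeq2 gave 55.3% of its 2352 calls as higher in iPSC, against 45.2% with edgeR. Between PC and control iPSC the count of 0 genes ran from 0 to 309 and the members' median from -0.30 to 0.00 with 1 line left out. Where a single library makes a group it is assumed to vary like the iPSC lines. A count of 0 allows up to 3 reads in a library, and such limits cover counting error only.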
